A study of Mus musculus with 6 samples.

Results

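The 9 genes Stat2, Irf9, Irf1, Irf7, Ifih1, Isg15, Ifit1, Ifit3 and Bst2, which respond to interferon, were examined in hind leg muscle of exercised and sedentary mice. They were taken by gene symbol from a table of 16759 genes, all 9 were found, and no filter on expression was used. The muscle came from male C57BL/6J mice that were 8 weeks old at the start, and 1 RNA sequencing library was made per mouse. The 3 control (Con) mice did not train, and the 3 exercise (EX) mice had 6 weeks of treadmill running, with 5 sessions of 60 min each week and 22 km covered per mouse. Muscle of EX mice was taken 24 h after training ended, the bodies were perfused with phosphate-buffered saline, and fat between the muscles was removed. The labels do not say which hind leg muscles were sampled, and the sampling time of the Con mice relative to the EX mice is not given in the sources used here.

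Interferons are secreted proteins that warn cells of infection, and most tissues keep a low level of their target genes at rest. Type I interferon binds the receptor Ifnar1 and Ifnar2 and acts through the kinases Jak1 and Tyk2. Stat2 and Irf9 then take part in a complex that binds the interferon-stimulated response element (ISRE) of target promoters. Type II interferon leads to binding at another element, the gamma-activated site (GAS). The targets include the sensors and transcription factors of the pathway itself, so the response feeds back on its own components.

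The promoters of the members are shown first, since interferon is known to act on its target genes through the ISRE and the GAS. The ISRE was searched as GAAA, any 2 bases and GAAA, and the GAS as TTCNNNGAA, on both strands and with overlapping matches counted, from 250 bases before to 50 bases after each RefSeq start site (GRCm38.p6). All 9 members had at least 1 such window, 11 in all. An ISRE match lay in 6 of these 11 windows, each of a different member, and in 3.44% of the 32851 windows of all genes. A GAS match lay in 2 of the 11 windows and in 8.30% of all windows. Of the 108 other pathway genes with a window, 41 had an ISRE match (38.0%, against 3.99% of all genes) and 26 a GAS match (24.1%, against 9.55%). The matches upstream of the start are printed 5′ to 3′ on the strand of the gene, with 15 bases on each side and with the matched letters in capitals.
Isg15: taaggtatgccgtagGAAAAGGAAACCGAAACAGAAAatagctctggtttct
Bst2: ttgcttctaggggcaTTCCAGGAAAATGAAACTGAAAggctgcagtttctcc
Ifit1: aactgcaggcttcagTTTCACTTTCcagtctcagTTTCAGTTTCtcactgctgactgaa
Ifit3: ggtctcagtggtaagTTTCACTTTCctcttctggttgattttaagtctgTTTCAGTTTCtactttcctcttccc
Stat2: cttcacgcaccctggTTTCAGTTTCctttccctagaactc
Irf1: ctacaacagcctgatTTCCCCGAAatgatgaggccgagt

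The Isg15 stretch (chr4:156200860-156200911, minus strand) held 3 overlapping ISRE matches between 78 and 57 bases before the start. Ifit1 (chr19:34640770-34640828, plus strand) and Ifit3 (chr19:34583358-34583431, plus strand) each held a pair of separate ISRE matches on the reverse strand. Bst2 (chr8:71537572-71537623, minus strand) held a GAS match that overlapped the first of its 2 ISRE matches. Stat2 (chr10:128270261-128270300, plus strand) had a single ISRE match, 222 bases before the start, and the stretch of Irf1 (chr11:53769909-53769947, plus strand) held a GAS match. Ifih1 had its ISRE match after the start, at bases 33 to 42, and no match was found in the windows of Irf7 or Irf9. A match is a run of letters and was not tested as a binding site.

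**Figure D1:**
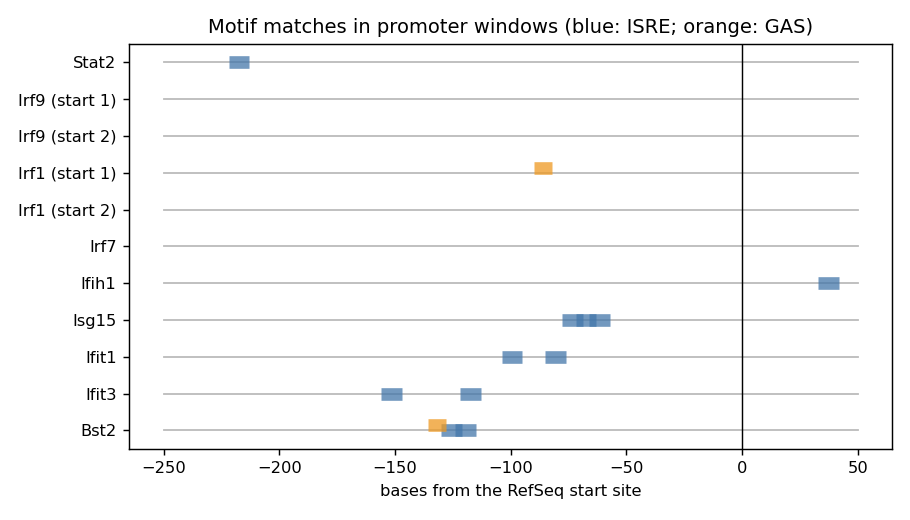
Position of motif matches in the 11 RefSeq promoter windows of the 9 members, in bases from the start site (vertical line). Blue blocks are ISRE matches and orange blocks are GAS matches. Matches in Isg15, Ifit1, Ifit3 and Bst2 lie between 156 and 57 bases before the start, and the windows of Irf7 and Irf9 hold none.

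Counts on genes totalled between 13845362 and 15585048 per Con mouse and between 16080487 and 16240431 per EX mouse. The 8 markers of skeletal muscle fibres summed to between 149200 and 156100 CPM in Con and between 158400 and 166600 CPM in EX. The tissue label thus held in every library. Levels are given as counts per 1e6 counts of a library (CPM), with library sizes scaled by TMM, and differences are log2 fold changes of EX against Con from edgeR's quasi-likelihood test, with adjustment over the 16716 genes that had a count. The limit that a count of 0 allows, 3 counts, lay at 0.188 to 0.214 CPM, under every value of the 9 members. Intervals are 95% intervals of the log2 fold change.

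Per length of transcript, Bst2 was the highest of the 9 members in Con at 19.5 ± 1.23 FPKM (SD, n = 3), followed by Irf1 at 8.83 ± 0.482 and Irf9 at 6.02 ± 0.525. Irf7, Ifit3, Stat2 and Isg15 followed at 4.53 ± 0.511, 4.27 ± 0.157, 4.2 ± 0.170 and 4.0 ± 0.875 FPKM, and the ranges of neighbours among these 4 overlapped. Ifih1 at 1.90 ± 0.228 and Ifit1 at 1.42 ± 0.244 FPKM were the lowest, with Con ranges separate from each other. The least sampled member was Isg15, with 18 to 35 counts per library.

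Against Con, 2 of the 9 members were lower in EX past an adjusted p of 0.05, Irf7 and Stat2, and no member was higher. Of all genes tested, 5.96% were lower and 6.08% higher past this threshold. All 9 members averaged at least 10 counts, and among all genes that did, 7.81% were lower. The log2 fold change was below 0 for 8 of the 9 members, where it was below 0 for 50.6% of all genes. The median over the members was -0.21 and over all genes tested 0.00. For 3 members (Stat2, Irf7 and Ifit3) every EX value lay under every Con value, as it did for 13.3% of all genes. Scaling by plain library totals gave a median of -0.27 for the members and -0.06 for all genes.

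**Figure D2:**
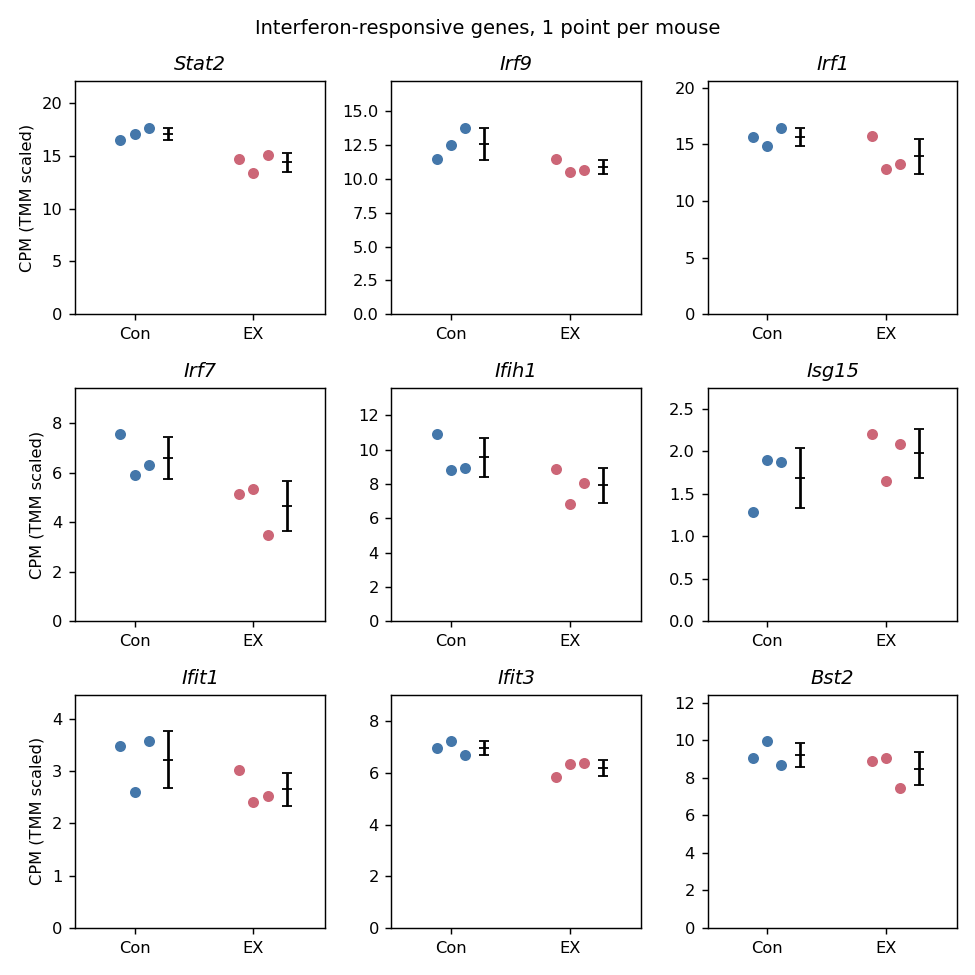
CPM (TMM scaled, axis from 0) of the 9 members in each mouse, with Con in blue and EX in red. Bars give the mean and SD of 3 mice. The groups are separate for Stat2, Irf7 and Ifit3 and overlap for the other 6 genes, and Isg15 alone has a higher mean in EX.

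Stat2 and Irf9 carry the type I signal from the receptor to the promoter. Stat2 (gene 20847) measured 16.5, 17.1 and 17.7 CPM in Con replicates 1 to 3 and 14.7, 13.4 and 15.1 CPM in EX replicates 1 to 3. The groups did not overlap, and the log2 fold change was -0.25 (standard error 0.08, interval -0.41 to -0.08, adjusted p = 0.0362). This is a level 15.8% lower in EX. The call rested on all 6 libraries, since the adjusted p was 0.0519, 0.104 and 0.131 without Con replicates 1, 2 and 3, and 0.102, 0.197 and 0.0685 without EX replicates 1, 2 and 3. Irf9 (16391), the DNA-binding part of the complex, measured 11.5, 12.5 and 13.8 CPM in Con and 11.5, 10.5 and 10.6 CPM in EX. EX replicate 1 lay within the Con range and the other 2 EX mice lay under it. Its log2 fold change was -0.21 (interval -0.40 to -0.02, adjusted p = 0.155). Irf9 shares 123 of its 5386 exonic bases with Rnf31 on the same strand in GENCODE M21, so a few reads could belong to either gene.

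Irf1 and Irf7 are transcription factors that are induced by interferon and in turn switch on interferon genes and targets. Irf7 (54123), the main factor behind the amplification of type I interferon, was read 106, 93 and 101 times in Con against 82, 84 and 55 times in EX. As CPM these were 7.55, 5.89 and 6.33 in Con and 5.15, 5.33 and 3.48 in EX. EX replicate 3 stood lowest, and the other EX mice lay just under the lowest Con mouse. At a log2 fold change of -0.49 (interval -0.78 to -0.20, standard error 0.14, adjusted p = 0.0152), Irf7 was 29.0% lower in EX and showed the largest change of the 9 members. Without Con replicate 1 the change was -0.39 (adjusted p = 0.164), without EX replicate 1 it was -0.57 (adjusted p = 0.0996) and without EX replicate 3 it was -0.32 (adjusted p = 0.243). Irf1 (16362), which also answers type II interferon, measured 15.7, 14.8 and 16.5 CPM in Con and 15.7, 12.8 and 13.3 CPM in EX. Its EX replicate 1 was as high as the Con mice. The log2 fold change of Irf1 was -0.17 (interval -0.34 to 0.01, adjusted p = 0.243). In the annotation, Irf1 and Irf7 share 135 and 45 exonic bases with the genes Gm17334 and Phrf1 on the opposite strand. Whether the libraries kept strand is not given in the sources used here.

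With DESeq2 on the same counts, 0 of the 9 members passed the adjusted threshold, which 7.02% of all genes did, and 2 had an unadjusted p under 0.05, as did 14.5% of all genes. DESeq2 gave 3890 of the 16716 genes no adjusted p, and the 7.02% counts these as not called. The adjusted p was then 0.123 for Irf7 and 0.214 for Stat2, with log2 fold changes of -0.50 and -0.25. With limma on log2(FPKM + 0.1), 0 members passed, against 6.69% of all genes, and 5 had an unadjusted p under 0.05, against 23.0%.

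**Figure D3:**
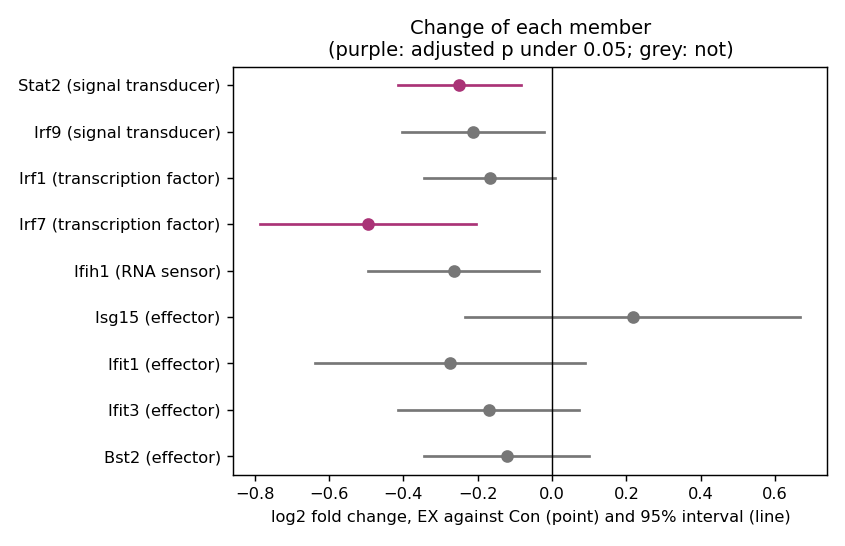
Log2 fold change of EX against Con (points) with the 95% interval from edgeR (lines) for each member, ordered by role. Irf7 at -0.49 and Stat2 at -0.25 (purple) passed an adjusted p of 0.05. The intervals of Irf9 and Ifih1 end below 0 without passing after adjustment, and those of the other 5 cross 0.

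Ifih1 (71586) encodes MDA5, which senses long double-stranded RNA in the cytoplasm. It measured 10.9, 8.81 and 8.96 CPM in Con and 8.86, 6.85 and 8.03 CPM in EX. The highest EX mouse lay just above the lowest Con mouse. The log2 fold change was -0.26 (interval -0.50 to -0.03, adjusted p = 0.138), so it did not pass after adjustment.

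The remaining 4 members are effectors. Isg15 (100038882), a small protein that is attached to other proteins like ubiquitin, was the only member with a higher mean in EX. The 3 Con mice gave 18, 30 and 30 counts of it against 35, 26 and 33 in the EX mice, or 1.28, 1.90 and 1.88 against 2.20, 1.65 and 2.09 CPM. The groups overlapped and the interval of the log2 fold change ran from -0.23 to 0.67 around 0.22 (adjusted p = 0.603). The adjusted p misses the threshold and does not show that Isg15 was equal in the groups, since this interval is the widest of the 9. Ifit1 (15957), which binds foreign RNA that lacks a host-type cap, measured 3.49, 2.60 and 3.57 CPM in Con and 3.02, 2.41 and 2.53 CPM in EX. Con replicate 2 lay among the EX values, and the log2 fold change was -0.27 (interval -0.64 to 0.09, adjusted p = 0.386). Bst2 (69550), or tetherin, holds budding viruses at the cell surface. It measured 9.04, 9.95 and 8.71 CPM in Con and 8.92, 9.07 and 7.46 CPM in EX, with 2 of the 3 EX mice inside the Con range. The change of Bst2 was the smallest of the 9, at -0.12 (interval -0.34 to 0.10, adjusted p = 0.563).

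Ifit3 (15959), a partner of Ifit1, could not be counted apart from its near-copy Ifit3b. Its deposited counts were 98.38, 113.94 and 107.20 in Con and 93.22, 99.89 and 100.55 in EX, none of them whole. Those of Ifit3b were 103.62, 118.06 and 123.80 in Con and 113.78, 106.11 and 100.45 in EX. Added together they were whole in each library, at 202, 232 and 231 in Con and 207, 206 and 201 in EX, of which Ifit3 took between 45.0% and 50.0%. The promoter stretch of Ifit3b that holds its ISRE matches (chr19:34607754-34607827, plus strand) is the same run of 74 letters as the Ifit3 stretch printed above. As CPM, Ifit3 measured 6.98, 7.23 and 6.70 in Con and 5.84, 6.34 and 6.39 in EX, with a log2 fold change of -0.17 (interval -0.41 to 0.07, adjusted p = 0.439). With the counts of both genes added, the change was -0.17 (adjusted p = 0.226).

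The members did not share a single extreme mouse. EX replicate 2 had the lowest CPM for 5 members and EX replicate 3 for 2, while Con replicate 3 had the highest for 4. Summed over the 9 genes, the level was 82.9, 80.8 and 84.0 CPM in Con and 75.9, 68.4 and 69.0 CPM in EX, of which Stat2 and Irf1 form the largest shares. Among 10874 other genes that averaged 1 FPKM or more, the 3 whose profile over the 6 libraries lay closest to the mean log2 profile of the members were Clock, Qk and Hspa1l. Their root mean square distances were 0.016, 0.023 and 0.023 on the log2 scale, where the profile of the members spans 0.28.

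The rest of the pathway was read from lists of 167 other genes, of which 139 had a row in the table. Past the threshold, 20 of these 139 were lower and 1 was higher in EX, which is 14.4% lower against 5.96% of all genes. Among genes with a mean of at least 10 counts, 16.8% of the pathway genes were lower, against 7.81% of all genes. The 21 calls became 33 with library totals and 10 with DESeq2, settings that called 14.5% and 7.02% of all genes. All 10 DESeq2 calls were lower in EX, as were 3.27% of all genes with DESeq2. Without EX replicates 1, 2 and 3 there were 13, 13 and 11 calls, and without Con replicate 1 there were 14. These fits called 6.79%, 7.79%, 6.93% and 9.2% of all genes. The median log2 fold change over the 139 genes was -0.11. Of the 21 calls, 10 lay among type I effectors and 8 among type II targets. Of 21 interferon genes only Ifnab had a row, with 1 count in Con replicate 1 and 0 elsewhere. Of 12 receptors, Janus kinases and other STATs, 0 passed in edgeR's test. An unadjusted p under 0.05 was found for 3 of the 12 (Ifnar1, Ifngr2 and Stat3), a share near the 23.6% of all genes. The most abundant of them were Jak1, at 199.8 ± 5.10 CPM in Con and 209.9 ± 2.52 in EX, and Jak2, at 82.5 ± 1.30 and 81.0 ± 4.15.

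Among the other regulators, 1 gene of each list passed, each lower in EX. These were 16.7% of 6 interferon regulatory factors, 6.25% of 16 sensors and adaptors and 11.1% of 9 negative regulators, against 5.96% of all genes. A single call in a list this small does not set the list apart from all genes. Irf2, which competes with Irf1 for the same promoter sites, fell from 26.3 ± 1.45 to 21.9 ± 0.964 CPM (log2 fold change -0.26, adjusted p = 0.00673), and the other 5 interferon regulatory factors did not pass. The adjusted p of Irf2 was 0.0541 without Con replicate 1, 0.095 without EX replicate 1, 0.0609 without EX replicate 3 and 0.0673 with DESeq2. Of 16 nucleic acid sensors and adaptors only Traf3, an adaptor between sensors and interferon induction, was called. It fell from 27.2 ± 0.0341 to 23.3 ± 0.368 CPM (log2 fold change -0.22, adjusted p = 0.0175). The call was lost without Con replicate 2 (adjusted p = 0.0597) and without EX replicates 1, 2 or 3 (0.0536, 0.0697 and 0.0889), and also with DESeq2. Of 9 negative regulators Socs3, an inhibitor of Janus kinases, fell from 7.86 ± 0.678 to 6.07 ± 0.0299 CPM (log2 fold change -0.37, adjusted p = 0.03). That call was lost without any 1 library except Con replicate 3, with adjusted p-values from 0.0541 to 0.168, and also with DESeq2. Usp18, which removes Isg15 from proteins and is a widely used target gene, was at 3.98 ± 0.413 CPM in Con and 3.83 ± 0.133 in EX (adjusted p = 0.861). Ifnar1, Ifngr2, Stat3, Usp18, Lgals3bp, Gbp6, Tgtp1 and Tgtp2 are named although the rule for named genes did not pick them, after their values were seen.

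Of 62 type I interferon-induced effectors, 9 were lower (14.5%), 1 was higher and 52 did not pass, with a median log2 fold change of -0.16. Of all genes, 5.96% were lower and 6.08% higher. Among genes with a mean of at least 10 counts, 17% of the list was lower, against 7.81% of all genes. Trim21, an antibody receptor of the cytosol, changed by -0.60 (4.59 ± 0.702 CPM in Con, 3.01 ± 0.525 in EX, adjusted p = 0.00985). Ifit2, a neighbour of Ifit1 and Ifit3 in the same gene cluster, changed by -0.53 (7.04 ± 0.426 and 4.86 ± 0.489 CPM, adjusted p = 0.0031). Oasl2, of the oligoadenylate synthetase family, changed by -0.51 (5.91 ± 0.376 and 4.15 ± 0.688 CPM, adjusted p = 0.0116). Eif2ak2, the kinase PKR that halts translation on double-stranded RNA, changed by -0.48 (14.2 ± 1.38 and 10.2 ± 0.681 CPM, adjusted p = 0.000245). These 4 genes were picked for the largest called changes, and in each the 3 EX mice lay under all Con mice. Such a separation was found for 17 of the 62 effectors and for 13.3% of all genes. Leaving out Con replicate 1 gave adjusted p-values of 0.0987 for Trim21 and 0.0698 for Oasl2. It was 0.151 for Trim21 without EX replicate 1, 0.134 for Oasl2 without EX replicate 2 and 0.0679 for Trim21 without EX replicate 3. Trim21 and Oasl2 did not pass with DESeq2. The 1 higher gene was Lgals3bp, a secreted glycoprotein, at 26.4 ± 2.75 CPM in Con and 30.8 ± 0.211 in EX (log2 fold change 0.22, adjusted p = 0.0264). No pathway gene was called higher with library totals, with DESeq2, with limma, or when EX replicate 2, EX replicate 3 or the first Con library was left out.

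Of 34 type II interferon-induced genes, 8 were lower (23.5%, against 5.96% of all genes), 0 were higher and 26 did not pass. The median log2 fold change was -0.23. Among genes with a mean of at least 10 counts, 27.6% of the list was lower, against 7.81% of all genes. Nlrc5, the transactivator of MHC class I genes, showed the largest called change, from 4.34, 5.64 and 5.70 CPM in Con to 2.89, 2.47 and 2.40 CPM in EX. The log2 fold change was -1.02, with a standard error of 0.16 and an adjusted p of 6.72e-06. Of the 9 guanylate-binding proteins of this list in the table, which attack the vacuoles of intracellular pathogens, 4 were called and 5 did not pass. Of those called, Gbp10 changed by -0.83 (3.53 ± 0.492 CPM in Con, 1.98 ± 0.516 in EX, adjusted p = 0.0017), Gbp3 by -0.53 (12.04 ± 1.57 and 8.32 ± 0.514 CPM, adjusted p = 0.000281) and Gbp4 by -0.46 (22.5 ± 1.01 and 16.3 ± 1.56 CPM, adjusted p = 1.59e-05). Without EX replicate 1 the adjusted p of Gbp10 was 0.0779. Gbp10 was not counted apart from Gbp6: neither gene had whole counts, and added together they were whole in each library, at 248, 283 and 271 in Con and 212, 156 and 232 in EX. Gbp10 took between 11.1% and 23.8% of that sum. With both genes added, the log2 fold change was -0.47 (adjusted p = 0.000287). Gbp6, which changed by -0.39 (adjusted p = 0.00831), made up most of the sum, and whether the split of reads bears on the value of Gbp10 was not tested. The calls of Gbp6 and Gbp10 are therefore not separate. The counts of Gbp3 and Gbp4 were whole. Among the other calls, Tgtp1 (log2 fold change -0.41, adjusted p = 0.00639) also had counts that were not whole. They came out whole when added to those of Tgtp2, which was not called (-0.15, adjusted p = 0.341).

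**Figure D4:**
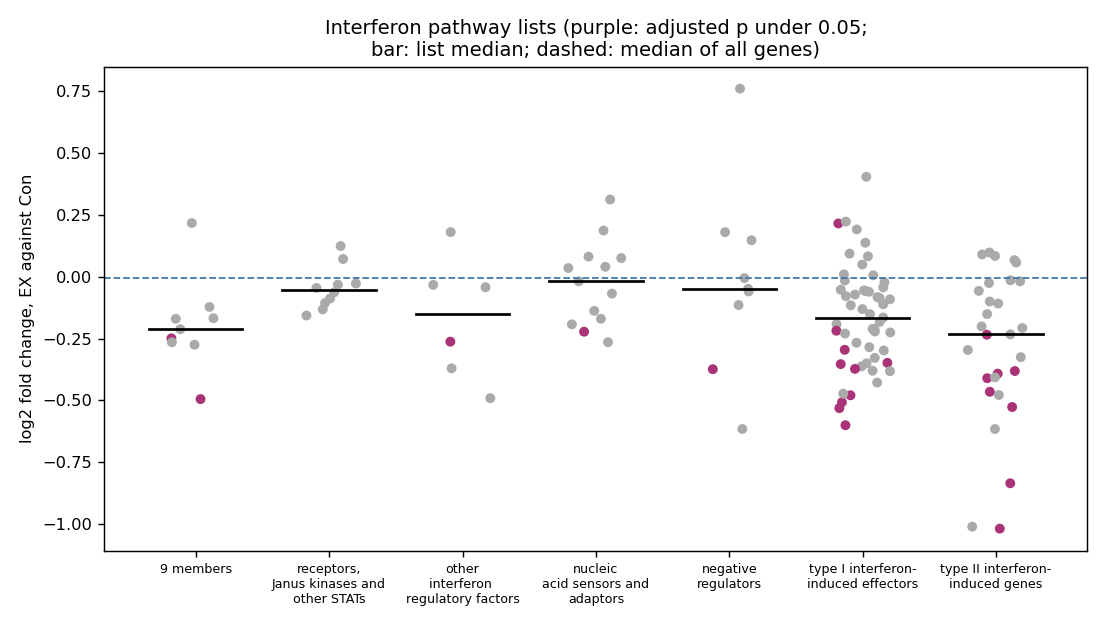
Log2 fold change of EX against Con for each gene with a mean of at least 10 counts, in the 9 members and in 6 lists of the pathway. Purple points passed an adjusted p of 0.05, black bars are list medians and the dashed line is the median of all genes. The lowest medians are those of type II targets at -0.23 and of the members at -0.21.

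The cells that could carry these transcripts did not all move with them. In bulk muscle, fewer cells of a type and less RNA per cell cannot be told apart. The 12 macrophage markers summed to between 46.1 and 51.5 CPM in Con and between 81.7 and 89.4 CPM in EX. Of them 6 were higher, 0 lower and 6 not called, and C1qc, a complement subunit, rose from 3.30 ± 0.556 to 7.92 ± 1.15 CPM (log2 fold change 1.26, adjusted p = 6.1e-09). The 10 endothelial markers summed to between 905.8 and 919.0 CPM in Con and between 790.1 and 814.1 in EX, with 5 lower, 1 higher and 4 not called. The summed level of the members was also lower in each of the 3 EX mice than in any Con mouse. The part of these cell types in the change of the members was not tested. The 10 lymphocyte markers summed to at most 1.64 CPM in Con and 0.571 in EX, and each stayed under 1 CPM in every library. The 6 neutrophil markers with a row summed to between 1.70 and 2.34 CPM over all libraries. Of 7 markers of plasmacytoid dendritic cells, the main producers of type I interferon, 5 stayed under 1 CPM, and Tcf4, which other cells also express, made up most of the sum of 56.8 to 67.8 CPM. The 7 fibroblast markers summed to at most 787.2 CPM in Con and at least 987.1 CPM in EX, with 2 higher, the collagens Col1a1 and Col3a1. Without these 2 the sum was 417.3 to 468.7 CPM in Con and 423.1 to 442.5 CPM in EX, so the groups overlapped, with a lower mean in EX. In EX, 6 of the 7 adipocyte markers were called higher, where 6.08% of all genes were. The other, Fabp4, made up most of the sum (log2 fold change -0.09, adjusted p = 0.147). That sum was 230.2 to 249.7 CPM in Con and 248.4 to 255.6 CPM in EX, so the groups overlapped. The sum of the 8 skeletal muscle fibre markers was higher in each EX mouse than in any Con mouse, with 2 markers higher, 3 lower and 3 not called.

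**Figure D5:**
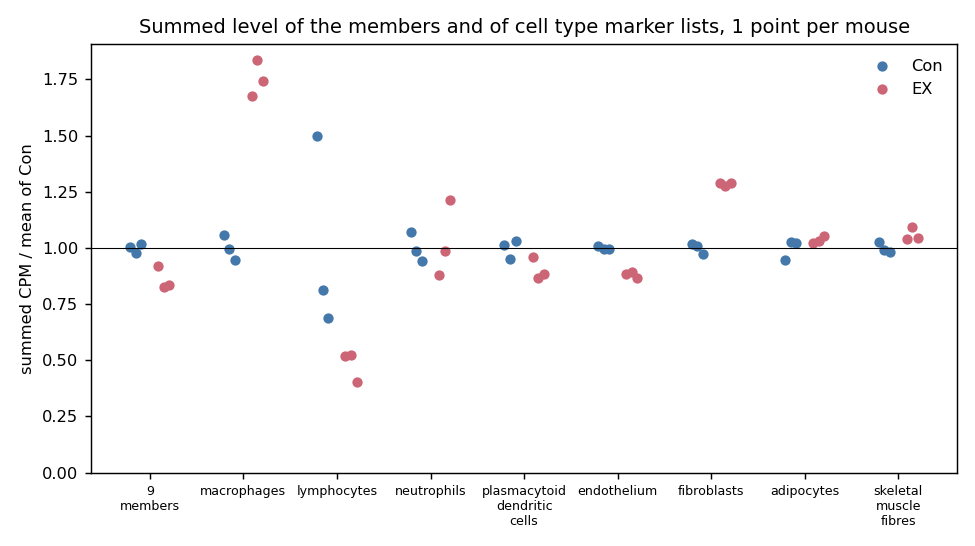
Summed CPM of the 9 members and of 8 marker lists in each mouse, divided by the mean of the 3 Con mice (axis from 0), with Con in blue and EX in red. The sums of the members and of the endothelial markers are lower in all 3 EX mice, and the macrophage and fibroblast sums are higher, the latter through Col1a1 and Col3a1 alone. The sum of the skeletal muscle fibre markers is higher in all 3 EX mice as well. The lymphocyte sum is also lower, and the lymphocyte and neutrophil sums rest on at most 2.34 CPM.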

How the data were processed

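RNA from hind leg muscle of 3 Con and 3 EX mice was sequenced, 1 library per mouse. The authors matched paired DNBseq reads to the mouse genome with HISAT. The paper names GRCm39, while the submitters' processing notes name GRCm38.p6 and list MultiQC, cutadapt and featureCounts. The deposited table gives estimated counts, FPKM and TPM per gene and library. The authors' group means (6 columns) were not used. Estimated counts were rounded and tested with edgeR 4.0.16 (quasi-likelihood test, TMM scaling, R 4.3.3) in all 16716 genes with a count in any library, with Benjamini-Hochberg adjustment over all of them and a threshold of 0.05. Whether the mice were housed or trained in batches is not given in the sources used here, so p-values measure the spread between these 6 libraries. For a single gene, an exact permutation of 3 against 3 mice cannot give a p below 0.1.

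All members were named. From each pathway list, up to 4 genes past the threshold with the largest change and a mean of at least 10 counts were named, or the most abundant 1 or 2 where none passed. The members and lists were chosen with earlier results of these data known. Alternatives were other scalings, filters on FPKM, DESeq2 1.42.0, limma 3.58.1 on log2(FPKM + 0.1), log2(FPKM + 1) and log2(TPM + 0.1), a replicate block, leaving out each library, and, chosen after seeing the data, adding the counts of Ifit3 and Ifit3b or of Gbp10 and Gbp6. The statistical steps were tested on simulated data. Promoters came from RefSeq (GRCm38.p6) and exon overlaps from GENCODE M21, and protein sequences were not used here. The limit given for a count of 0 covers counting error only, while edgeR's intervals include the spread between mice.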

Additional observations from a re-analysis of the deposited data

How the results depend on the processing

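The direction of every member, and of Irf2, Traf3, Socs3, Trim21, Ifit2, Oasl2, Eif2ak2, Nlrc5, Gbp10, Gbp3 and Gbp4, held under all alternatives that tested it. The number of members called, 2 in edgeR, was 0 with a mean of at least 5 FPKM (a filter that removes both Irf7 and Stat2 and leaves 3 members tested, 1 at an unadjusted p under 0.05), 0 with DESeq2 (2 unadjusted), 0 with limma on log2(FPKM + 0.1) (5 unadjusted), 0 with limma on log2(FPKM + 1) (6 unadjusted) and 1 with limma on log2(TPM + 0.1) (7 unadjusted). The unadjusted shares of all genes in these 5 settings were 32.7%, 14.5%, 23.0%, 23.0% and 26.3%, and the last called 9.04% of all genes. Leaving out each library gave 0 to 1 members, where 6.79% to 10.6% of all genes were called. The adjusted p ranged from 0.00524 to 0.243 for Irf7 and from 0.0076 to 0.214 for Stat2. The 21 calls in the other pathway genes became 33 with library totals, 6 of 47 tested with a mean of at least 5 FPKM, 10 with DESeq2 and 11 to 21 without 1 library. All genes were called in 14.5%, 20.5% and 7.02% with the first 3 of these, and with library totals 10.7% were lower. Among the fits without 1 library, the lowest count, 11, came without EX replicate 3, and leaving out either of the other EX replicates gave 13. With DESeq2 the adjusted p was 0.0673 for Irf2, 0.128 for Traf3, 0.199 for Socs3, 0.105 for Trim21 and 0.115 for Oasl2. With limma on log2(FPKM + 0.1) it was 0.0547 for Traf3, 0.0708 for Trim21, 0.0634 for Oasl2 and 0.0585 for Gbp10, and on log2(FPKM + 1) 0.0593, 0.066 and 0.0573 for the first 3 of these, while Nlrc5, Gbp3, Gbp4, Eif2ak2 and Ifit2 passed in every alternative that tested them. Over all genes, 2013 calls became 2419 with library totals, 1174 with DESeq2, 1119 and 1110 with limma on log2(FPKM + 0.1) and log2(FPKM + 1), and 1125 to 1757 without 1 library. Of all calls 49.5% were lower in EX, against 73.7% with library totals, 61.1% with totals that leave out the 20 most abundant genes, and with limma 68.3%, 67.5% and 79.2% on log2(FPKM + 0.1), log2(FPKM + 1) and log2(TPM + 0.1). Gbp10 changed by -0.47 with the counts of Gbp6 added, which left 20 pathway calls. On the log2(FPKM + 1) scale, where a low level shrinks differences, Nlrc5 changed by -0.36 and Gbp10 by -0.40. The cause of the other shifts was not tested. The replicate numbers did not pair the mice (correlations of same-numbered deviations -0.08, -0.05 and -0.07), and the replicate block gave 2 members, 21 pathway genes and 1856 of all genes. Depth limits Isg15 most, with 18 to 35 counts per library.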
